A study of Mus musculus with 4 samples.

Results

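Chemokine ligands are small secreted proteins that guide the movement of leukocytes. The 9 genes described here are Ccl1, Ccl3, Ccl4, Ccl5, Ccl17, Ccl20, Ccl22, Xcl1 and Cxcl10, taken by symbol from the 50600 genes annotated in the count tables, and each matched 1 row. They were measured by RNA-seq in 4 mouse libraries labelled regulatory T cells, a suppressive lineage that depends on the transcription factor Foxp3. All 4 libraries belong to 1 group of primary cells of strain C57BL/6NJ. Their labels number them as biological replicates 1 to 4 and link a CD4 T cell differentiation protocol. File headers carry the word activated and the time 72 h. The labels give age and developmental stage as unknown, sex as not collected, and 1 donor identifier shared by the 4 biosamples. The labels do not tie the libraries to separate mice, so p-values measure the spread between these libraries, part of which may be technical. With no second group, levels are compared within libraries and the spread is measured between them.

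Replicates 1 to 4 held 51460018 to 121477975 counts on genes, and a floor of 3 counts was worth 0.0247 to 0.0583 CPM (counts scaled to the library's total). Levels are given as TPM, counts per exon length scaled to a common total, which corrects for depth and for gene length. Intervals and floors cover counting error only. The labelled cell type was checked against defining transcripts. All 6 regulatory T cell markers, with Foxp3 at 448 ± 27.8 TPM (SD, n = 4), and all 8 T cell markers reached 1 TPM in every library. Among all protein-coding genes, 48.9% did so. Markers of 7 other cell classes were far lower, with summed levels of 3.21 to 45.8 TPM per library and class, against 4848 to 5162 TPM for the T cell markers. No list for conventional helper T cells was used, so their part in the libraries was not tested. Xist, the RNA that silences an X chromosome, was at 173 and 199 TPM in replicates 1 and 2 and at 0.592 and 0.758 TPM in replicates 3 and 4. The Y-linked gene Eif2s3y went the other way, at 0.0874, 0.133, 46.7 and 62.7 TPM. Replicates 1 and 2 thus stood apart from 3 and 4 in these transcripts, as RNA of female and male mice does, so the 4 libraries did not all come from 1 mouse.

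Most chemokines carry paired cysteines near their start, either adjacent (CC) or separated by a residue (CXC), and lymphotactin (Xcl1) has fewer of them. They bind G protein-coupled receptors on responding cells, and several ligands can share a receptor. In T cells, antigen receptor signals induce some of them strongly, Ccl3, Ccl4 and Xcl1 among them. Ccl17 and Ccl22, ligands of the receptor Ccr4, are best known from dendritic cells. Cxcl10 is a classical target of interferon-gamma.

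The inflammatory CC chemokines Ccl4 and Ccl3 dominated the 9 ligands. Values are the mean ± SD over the 4 libraries. Ccl4 was at 251 ± 25.2 TPM and Ccl3 at 152 ± 12.4 TPM, and together they held 90.5% ± 1.43 of the members' summed TPM. Ccl17 (14.5 ± 3.68 TPM) and Ccl20 (12.1 ± 2.83 TPM) followed at far lower levels. Ccl22 (5.05 ± 2.92 TPM), Ccl5 (3.83 ± 1.02 TPM), Xcl1 (3.53 ± 1.4 TPM) and Ccl1 (3.30 ± 0.571 TPM) lay close together. Cxcl10 had 8 counts in replicate 1 and 0 in the other libraries.

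**Figure D1:**
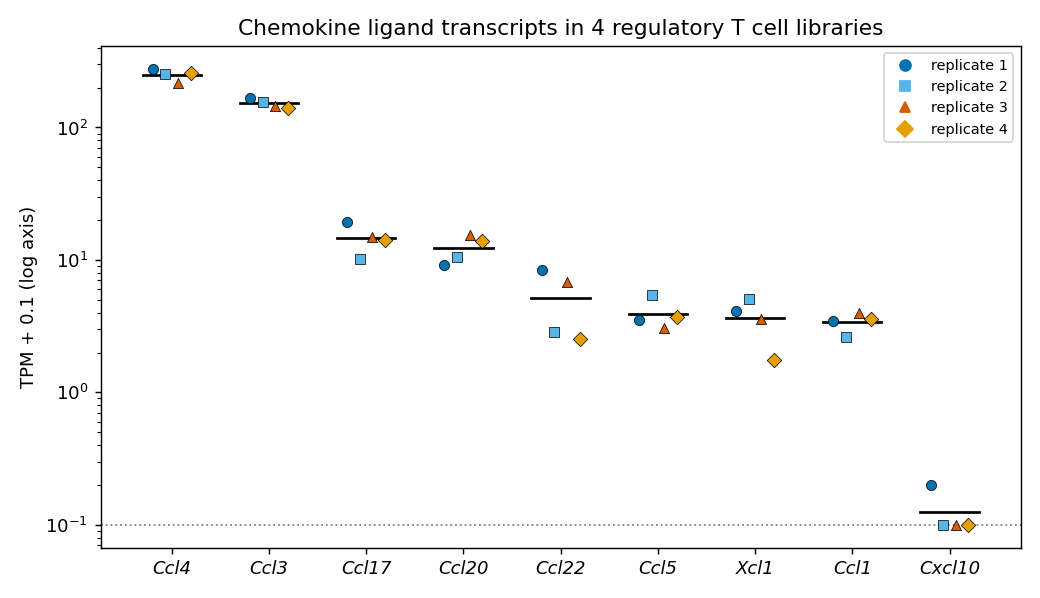
Level of each chemokine ligand in TPM plus 0.1 on a log axis, with a symbol for each of the 4 libraries and a bar at their mean; the dotted line marks 0 TPM. Ccl4 and Ccl3 sit between 140 and 277 TPM, the next 6 genes between 1.65 and 19.1 TPM, and Cxcl10 is at 0 in 3 libraries.

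A level of 1 TPM in each library was met by 8 of the 9 ligands, and the exception was Cxcl10. Among all 21764 protein-coding genes, 10640 (48.9%) did so. The members were chosen with earlier results of these data known, so the share is a description. Only 698 protein-coding genes had a higher mean TPM than Ccl4 and 1272 a higher one than Ccl3, against 7580 for Ccl17 and 9830 for Ccl1. The summed level of the 9 genes was 493, 444, 409 and 435 TPM in replicates 1 to 4. Ccl4 alone held 56.2% ± 2.41 of it.

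Some promoters are shown here because they belong to the ligands at the ends and in the middle of this range: abundant Ccl3, intermediate Ccl17 and Ccl20, and nearly absent Cxcl10. Promoter sequence was found for 7 of the 9 members, not for Ccl4 and Ccl5. Each run holds the 250 bases before the start site, 5′ to 3′ on the gene's strand, from RefSeq on GRCm38.p6, the assembly called mm10. Capitals mark matches to any of 5 motifs on either strand, namely the NF-kappaB consensus, AP-1 (TGANTCA), the NFAT core (GGAAA), STAT (TTCNNNGAA) and the core of the interferon-stimulated element (GAAA, any 2 bases, GAAA).
Ccl3 (chr11:83649379-83649628, minus strand): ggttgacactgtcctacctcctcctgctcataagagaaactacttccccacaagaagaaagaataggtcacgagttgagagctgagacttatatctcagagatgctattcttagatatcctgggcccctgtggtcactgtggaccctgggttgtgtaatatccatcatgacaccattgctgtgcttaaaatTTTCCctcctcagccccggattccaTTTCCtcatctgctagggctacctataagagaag
Ccl17 (chr8:94810203-94810452, plus strand): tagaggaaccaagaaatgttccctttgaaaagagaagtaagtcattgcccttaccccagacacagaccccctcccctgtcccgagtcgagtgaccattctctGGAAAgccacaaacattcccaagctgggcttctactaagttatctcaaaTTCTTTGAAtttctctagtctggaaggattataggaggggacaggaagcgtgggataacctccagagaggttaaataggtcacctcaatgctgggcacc
Ccl20 (chr1:83116516-83116765, plus strand): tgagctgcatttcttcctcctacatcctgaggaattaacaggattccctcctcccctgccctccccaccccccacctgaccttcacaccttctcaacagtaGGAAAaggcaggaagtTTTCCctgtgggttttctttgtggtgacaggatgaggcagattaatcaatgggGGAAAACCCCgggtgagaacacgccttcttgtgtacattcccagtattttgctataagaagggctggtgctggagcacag
Cxcl10 (chr5:92348890-92349139, minus strand): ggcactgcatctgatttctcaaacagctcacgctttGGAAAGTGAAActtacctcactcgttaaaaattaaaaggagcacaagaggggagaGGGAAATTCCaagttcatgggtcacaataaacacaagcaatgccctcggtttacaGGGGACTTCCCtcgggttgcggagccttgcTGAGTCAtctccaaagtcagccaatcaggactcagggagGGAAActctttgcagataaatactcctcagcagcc

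Among the 7 members with a window, the NF-kappaB consensus matched in 3 (Ccl1, Ccl20 and Cxcl10), against 7.25% of all 32851 RefSeq windows of this length. In Ccl20 the match began 80 bases before the start site, and its first bases overlap an NFAT core match. In Cxcl10 matches began 159, 104 and 103 bases before it. The NFAT core, a short motif present in 55.6% of all windows, matched in 6 of the 7 and was absent from the Ccl22 window. The interferon element core matched only in Cxcl10, 213 bases before the start site, against 2.98% of all windows. STAT matched only in Ccl17 (7.02% of all windows) and AP-1 only in Cxcl10 (6.75%), and a TATA box (TATAAA) in none of the 7 (12.4%). A match is a run of letters and does not show that a factor binds there.

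Ccl4 and Ccl3, known as macrophage inflammatory proteins 1 beta and 1 alpha, attract monocytes and effector T cells. Ccl4 (gene ENSMUSG00000018930.3, mm10 chromosome 11, 83662584 to 83664683) was at 277, 252, 217 and 256 TPM in replicates 1 to 4. Ccl3 (ENSMUSG00000000982.5, chromosome 11, 83647844 to 83649355), whose promoter holds 2 NFAT core matches, was at 168, 156, 145 and 140 TPM. Replicate 3 was lowest for Ccl4, and for Ccl3 replicates 1 and 2 lay above 3 and 4. The genes are transcribed away from each other with 13.2 kb between them. Ccl4 exceeded Ccl3 by 0.72 ± 0.12 on the log2(TPM + 0.1) scale, a 1.64-fold difference, in 4 of 4 libraries (exact two-sided sign-flip p = 0.13, from 2 of 16 sign assignments, and 0.196 after Benjamini-Hochberg adjustment over 11 pairs). This is the smallest p that 4 libraries allow in this test, so it cannot fall below 0.05. These 2 genes also rested on the most counts, 15253 and 10829 over the 4 libraries, and their coefficients of variation were 10.1% and 8.13%.

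Ccl5 (RANTES), a ligand of Ccr1 and Ccr3 among others that memory and cytotoxic T cells usually make in quantity, was far below its relatives. Ccl5 (ENSMUSG00000035042.2, chromosome 11, 83525778 to 83530518) was at 3.44, 5.30, 2.98 and 3.59 TPM in replicates 1 to 4. Replicate 2 was highest, on 92 counts. It lies 117 kb from Ccl3 on the same chromosome. Ccl4 exceeded it by 6.02 ± 0.33 and Ccl3 by 5.31 ± 0.34 on the log2 scale, in 4 of 4 libraries each (exact sign-flip p = 0.13, adjusted 0.196). Between them lie Ccl6, with 0 counts in all 4 libraries, and Ccl9, with 4 counts in total.

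Ccl17 and Ccl22 attract cells that carry Ccr4, which regulatory T cells and Th2 cells do. Ccl17 (ENSMUSG00000031780.2, chromosome 8, 94810453 to 94812036) was at 19.1, 10.1, 14.7 and 14.1 TPM in replicates 1 to 4. Ccl22 (ENSMUSG00000031779.3, chromosome 8, 94745590 to 94751699) was at 8.34, 2.76, 6.69 and 2.42 TPM. For Ccl22, replicates 1 and 3 were high and 2 and 4 low, with a 3.44-fold ratio of the highest to the lowest. From high to low, the libraries ran 1, 3, 2 and 4, the same order as their total counts. The part of depth in this spread was not tested. Ccl17 was also highest in replicate 1 and lowest in replicate 2, but replicates 3 and 4 were close. Ccl17 exceeded Ccl22 by 1.66 ± 0.64 on the log2 scale in 4 of 4 libraries (exact sign-flip p = 0.13, adjusted 0.196). By CPM, without the length correction, the order turned and the difference was -0.48, since the Ccl22 row has 2325 bases of exon and the Ccl17 row 514.

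The membrane-bound chemokine gene Cx3cl1 (fractalkine) lies between them on chromosome 8, 20.3 kb from Ccl22 and 28.02 kb from Ccl17, all on the plus strand. It was at 16.8, 11.2, 12.4 and 10.5 TPM in replicates 1 to 4. Replicate 1 was again the highest library. The remaining gene annotated between Ccl22 and Ccl17, the pseudogene Gnb1-ps3, had 0 counts.

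Since dendritic cells are a known source of Ccl17 and Ccl22, their markers are given beside these genes. Of 10 dendritic cell markers, 3 reached 1 TPM in every library, namely Batf3 (19.9 ± 3.47 TPM), H2-Ab1 (16.7 ± 2.63 TPM) and Zbtb46 (4.51 ± 0.437 TPM). Clec9a, Siglech and Cd209a had 0 counts in all 4 libraries, and Itgax and Flt3 had 22 and 12 counts in total. The summed level of the list was 45.8, 40.3, 35.1 and 43.9 TPM in replicates 1 to 4. It was highest in replicate 1, as were Ccl17 and Ccl22, but of these 3 markers only Batf3 was highest there (24.9 TPM). H2-Ab1 was highest in replicate 4 (19.8 TPM) and Zbtb46 in replicate 2 (5.10 TPM). The sum was lowest in replicate 3, where Ccl22 was high. The part of such cells in the levels of Ccl17 and Ccl22 was not tested. Of 9 macrophage and monocyte markers, 2 reached 1 TPM in every library, Cd68 (4.51 ± 1.39 TPM) and Adgre1 (2.55 ± 0.861 TPM), and Lyz2, Fcgr1 and Ly6c2 had 0 counts. That list summed to 7.07 to 8.69 TPM. In bulk RNA, fewer cells of a type and less RNA per cell cannot be told apart.

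Ccl20, which draws Ccr6-bearing T cells, B cells and dendritic cells to epithelia, is a product of Th17 cells. Ccl20 (ENSMUSG00000026166.14, chromosome 1, 83116766 to 83119167) was at 9.12, 10.4, 15.2 and 13.8 TPM in replicates 1 to 4. Replicates 3 and 4 lay above 1 and 2. Ccl17 exceeded it by 0.25 ± 0.54 on the log2 scale, and was higher in 2 of 4 libraries (exact sign-flip p = 0.875, adjusted 0.963). With merged exon length, the order of these neighbours was thus within their spread. The difference was -1.18 by CPM, without the length correction, and -0.58 with the length of each gene's principal coding transcript.

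Ccl1, the ligand of Ccr8, is made by activated T cells. Ccl1 (ENSMUSG00000020702.13, chromosome 11, 82176657 to 82305690) was at 3.37, 2.50, 3.85 and 3.47 TPM in replicates 1 to 4, with replicates 3 and 4 above 1 and 2. This level depends on the length assigned to the gene. Its annotation includes a processed transcript of 11 exons that spans the whole interval, while its principal coding transcript has 3 exons and 514 bases within 82176657 to 82179812. With the length of that coding transcript in place of the 2369 merged bases, and the TPM total unchanged, Ccl1 was at 15.2 ± 2.63 TPM. By the same rule Ccl20 was at 21.7 ± 5.07 TPM and Ccl5 at 6.91 ± 1.84 TPM, while Ccl4, Ccl3, Ccl17 and Xcl1 did not change. Ccl1 then stood next to Ccl17 instead of last among the detected genes. The counts do not tell which transcript the fragments came from.

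Xcl1, or lymphotactin, attracts the cross-presenting dendritic cells that carry Xcr1. Xcl1 (ENSMUSG00000026573.7, chromosome 1, 164931644 to 164935527) was at 4.01, 4.97, 3.47 and 1.65 TPM in replicates 1 to 4. Replicate 4 was low on 13 counts, with an exact 95% Poisson interval of 0.877 to 2.82 TPM. Replicates 1 and 2 lay above 3 and 4.

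With merged exon length, the 4 lowest detected members could not be ordered in the adjacent pairs tested. Ccl22 and Ccl5 differed by 0.23 ± 1.13 on the log2 scale (exact sign-flip p = 0.75, adjusted 0.963). Ccl5 and Xcl1 differed by 0.18 ± 0.61 (exact p = 0.875, adjusted 0.963). Xcl1 and Ccl1 differed by 0.01 ± 0.83 (exact p = 1, adjusted 1). In each of these pairs the first gene was higher in 2 of 4 libraries. Without the length correction (CPM), the differences in the same order of pairs were 1.43, 0.92 and -1.96. With the length of the principal coding transcript they were -0.53, 1.02 and -2.16, so these orders depend on length. Ccl20 exceeded Ccl22 by 1.41 ± 1.00 and Ccl3 exceeded Ccl17 by 3.42 ± 0.35, in 4 of 4 libraries each (exact p = 0.13, adjusted 0.196). By CPM, without the length correction, Ccl20 exceeded Ccl22 by 0.70 ± 0.99 in 3 of 4 libraries (exact p = 0.375), within the spread.

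Cxcl10, which recruits Cxcr3-bearing effector T cells, was at the edge of detection. Cxcl10 (ENSMUSG00000034855.13, chromosome 5, 92346638 to 92348889) was at 0.0994 TPM in replicate 1, with an exact 95% Poisson interval of 0.0429 to 0.196 TPM. It had 0 counts in replicates 2 to 4, where the same interval reaches 0.0906, 0.0743 and 0.109 TPM. The intervals of the 4 libraries overlap, but overlap of separate intervals is not a test of a difference. All 8 counts fell in replicate 1, the library with the most counts, and whether its level was higher was not tested. Its neighbours Cxcl9 and Cxcl11, which share the receptor Cxcr3, had 0 counts in all 4 libraries. Of 11 interferon response genes, 3 reached 1 TPM in every library, namely Irf1 (12.5 ± 0.775 TPM), Isg15 (3.36 ± 1.63 TPM) and Gbp2 (3.22 ± 0.495 TPM). Ifng, the cytokine that induces Cxcl10, was at 1.51, 0.812, 0.350 and 0.205 TPM in replicates 1 to 4. Replicates 1 and 2 were above 3 and 4 for Ifng, on 103 counts in total, and its part in the level of Cxcl10 was not tested.

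The 7 receptors examined ranged from abundant to 0 counts. Ccr8 (791 ± 35.7 TPM), Ccr6 (512 ± 21.2 TPM) and Ccr4 (330 ± 38.1 TPM) were among the abundant transcripts, and Cxcr3 was at 9.54 ± 1.84 TPM. Xcr1 had 28 counts and Ccr3 3 in total, and Ccr1 had 0. The ligands of the high receptors were modest. Ccr8 exceeded Ccl1 by 7.88 ± 0.26 on the log2 scale, Ccr6 exceeded Ccl20 by 5.42 ± 0.38, and Ccr4 exceeded Ccl17 by 4.52 ± 0.50 and Ccl22 by 6.18 ± 1.02, in 4 of 4 libraries each. With only the ligands at the length of their principal coding transcript, the difference was 5.71 ± 0.26 for Ccr8 and Ccl1 and 4.58 ± 0.38 for Ccr6 and Ccl20. Receptors kept their merged exon length and the TPM total was not recomputed, so ligand and receptor then rested on unlike lengths. Ccr1, a receptor of the abundant ligand Ccl3, was at 0 in all 4 libraries. These differences between genes are given as descriptions without a test.

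**Figure D2:**
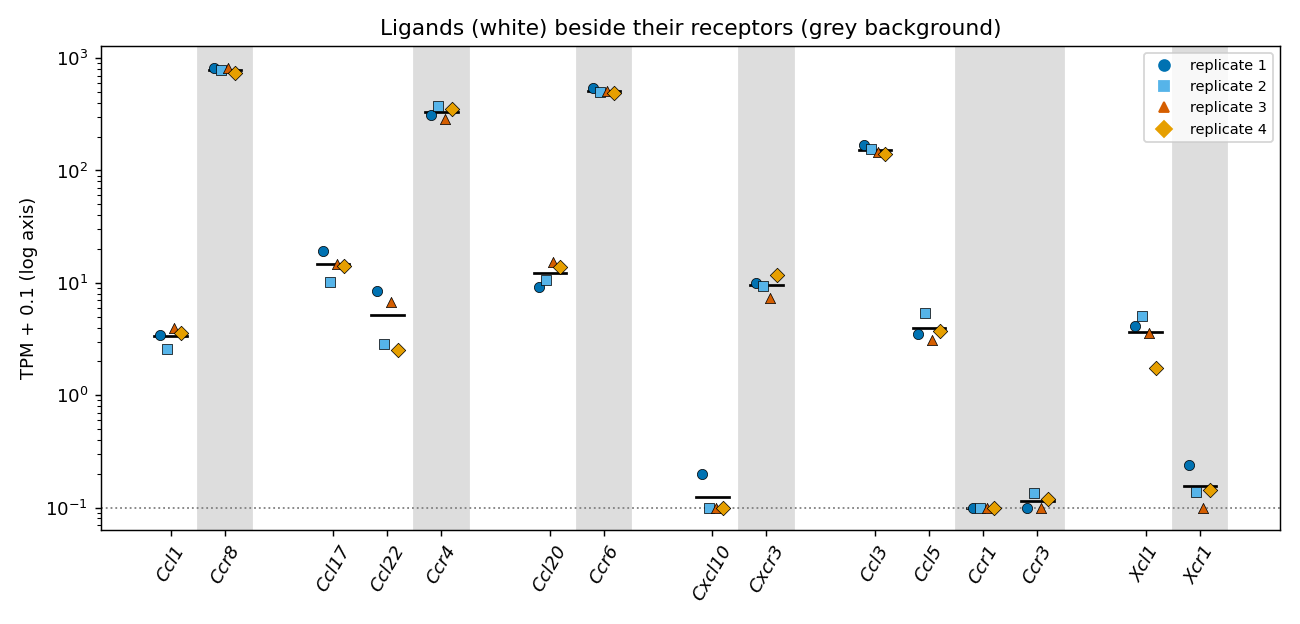
Ligands on white and their receptors on grey, in TPM plus 0.1 on a log axis, with a symbol for each library and a bar at the mean; the dotted line marks 0 TPM. Ccr8, Ccr4 and Ccr6 stand above their ligands in every library, while Ccl3, Ccl5 and Xcl1 stand above the receptors drawn beside them.

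Most of the other chemokine ligands examined were not detected. Of these 30, 19 had 0 counts in all 4 libraries, against 6697 of all 21764 protein-coding genes. A level of 1 TPM in every library was met by 2 of the 30, against 48.9% of protein-coding genes. They were Cx3cl1 and Ccl25 (2.11 ± 0.187 TPM), the thymic and intestinal ligand of Ccr9. Ccl27a was at 1.26 ± 0.583 TPM, but it has near-identical copies and its level is uncertain. The 30 genes summed to 14.7 to 20.5 TPM per library, against 409 to 493 TPM for the 9 members. Among 6 atypical receptors and modifiers, Dpp4, a protease that trims several chemokines, was at 5.91 ± 0.468 TPM and Ccrl2 at 1.55 ± 0.309 TPM. Ackr1, Ackr3 and Ackr4 had 0 counts.

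Factors and signals known to induce chemokine genes were largely present, with 15 of 17 at 1 TPM in every library, against 48.9% of protein-coding genes. In the edgeR test of spread between libraries, 15 of them were tested and 0 were called, against 1 of all 13625 genes tested. Csf2, Il13 and Nfkb2 (3 of the 15) had an unadjusted p under 0.05, against 4.70% of all genes tested. Irf4 (786 ± 42.6 TPM), Nfkb2 (567 ± 77.7 TPM) and Nfkb1 (342 ± 18.5 TPM) were highest. The cytokine genes Il4 (0.0712 ± 0.0823 TPM), Ifng (0.720 ± 0.588 TPM) and Il13 (3.04 ± 1.88 TPM) were lowest. Nfkb2, a subunit of NF-kappaB, was at 650, 481, 613 and 526 TPM in replicates 1 to 4. Replicates 1 and 3 were above 2 and 4. Irf4 was at 750.5, 828, 748 and 817 TPM, with replicates 2 and 4 above 1 and 3. The part of these factors in the levels of the ligands was not tested.

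The spread between libraries was then tested gene by gene. The test (edgeR quasi-likelihood) asks whether a gene's dispersion exceeds that of genes of like abundance. This dispersion is the variance between libraries relative to a count model that already allows for spread at that abundance. Of 13625 genes tested, 1 was called at an adjusted p under 0.05, which is 0.00734%, and that gene was Xist. The filter on low counts had to be passed in all 4 libraries. The Y-linked gene Eif2s3y, with 13 and 10 counts in replicates 1 and 2, was therefore not tested. Of the 9 members, 8 passed the filter on low counts and 0 were called, while Cxcl10 was not tested. Without adjustment, 641 genes (4.70%) had p under 0.05, and Ccl22 was the 1 member among them. DESeq2 marked 43 genes (0.316%) as dispersion outliers, and Ccl22 was the only member among them. The median log2 ratio of dispersion to trend was 0.85 over the 8 members and -0.19 over all genes tested.

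Ccl22 had the largest ratio of the 8, at 3.78 on the log2 scale (edgeR, unadjusted p = 0.0032, adjusted p = 0.965). Only 0.308% of tested genes had a larger one. When genes with few counts were kept in the same edgeR fit, 98 of 23106 genes (0.424%) were called and Ccl22 was the 1 member among them, with a ratio of 3.75 and an adjusted p of 0.0040. Across the other alternatives the adjusted p for Ccl22 lay between 0.191 and 0.971. Its variance over the libraries was 79.6 times that of counting error alone. The same ratio, which grows with the number of counts, was 39.0 for Ccl4, 26.2 for Ccl20 and 18.1 for Ccl3. It was 11.9 for Ccl17, 4.46 to 5.14 for Xcl1, Ccl5 and Ccl1, and 4.12 for Cxcl10 on 8 counts. Ccl20 followed with a log2 ratio of 1.58 (adjusted p = 0.965). The ratio was -0.30 for Ccl5, 0.02 for Ccl1 and 0.06 for Ccl3, nearest to that of genes of like abundance.

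**Figure D3:**
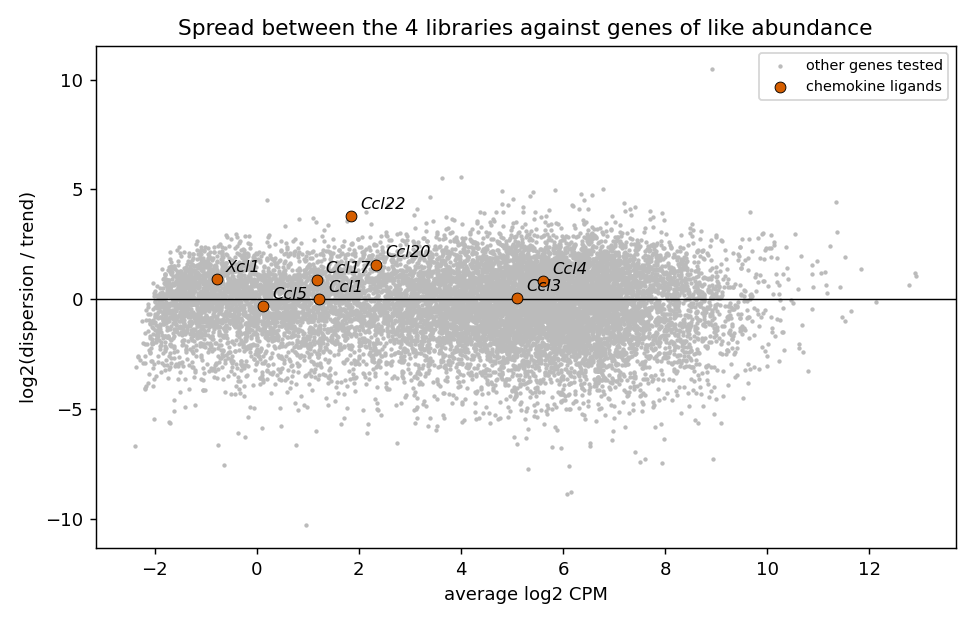
Log2 ratio of each gene's dispersion to the trend of genes of like abundance, against average log2 CPM, for 13625 tested genes in grey and 8 chemokine ligands in orange. Ccl22 stands at 3.78, above the other ligands, and the grey point at 10.49 is Xist.

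Genes with a like pattern were listed for the 2 ligands whose levels spanned at least 1 log2 unit. Likeness was measured as the largest deviation between log2(TPM + 0.1) profiles centred on their means, over 4 libraries and 10639 protein-coding genes. For Ccl22, 2 genes stayed within 0.25 in every library, the mitochondrial creatine kinase gene Ckmt1 (5.30, 1.77, 4.15 and 1.73 TPM) and Gm9887, and the histone gene Hist1h3c came next at 0.38. For Xcl1 the closest were the histone genes Hist1h2ak (4.20, 5.21, 3.58 and 1.69 TPM), within 0.02, and Hist1h2bk (0.28), then Npb (0.34). With 4 libraries such likeness is a description. Csf2, a cytokine gene chosen after its values were seen, was also high in replicates 1 and 3, at 27.5, 7.06, 24.8 and 12.9 TPM (edgeR dispersion ratio 3.97 on the log2 scale, adjusted p = 0.848).

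**Figure D4:**
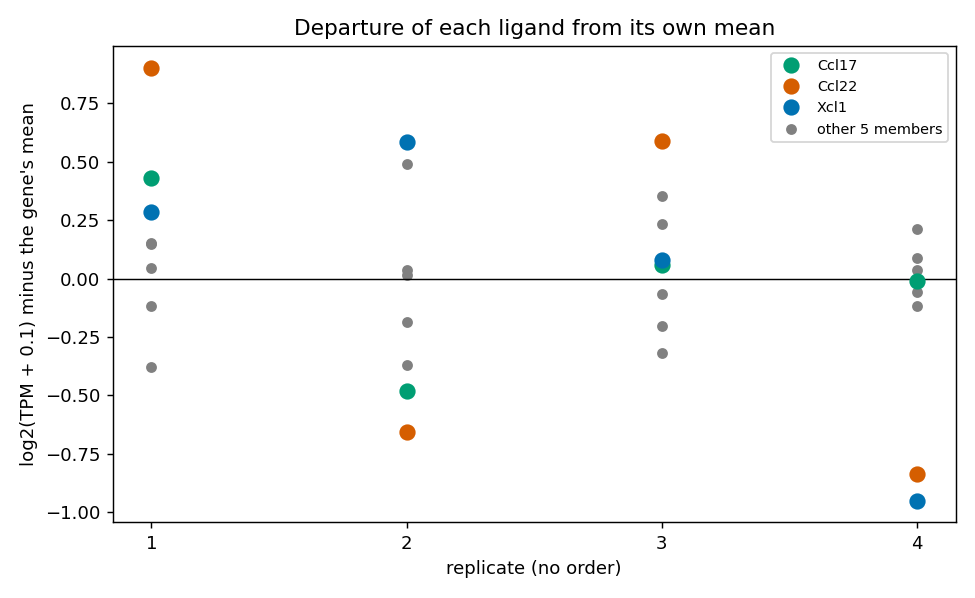
Departure of each of the 8 detected ligands from its own mean log2(TPM + 0.1), by library, with Ccl22, Xcl1 and Ccl17 in colour and the other 5 in grey. Ccl22 is high in replicates 1 and 3 and low in 2 and 4, and Xcl1 is low in replicate 4.

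The ligands were also compared across the split of libraries seen in Xist. Ccl3 and Xcl1 were higher in replicates 1 and 2, and Ccl1 and Ccl20 in replicates 3 and 4, so that 4 of the 8 detected members did not overlap between these pairs of libraries. Among all 11984 genes at 1 TPM in every library, 21.7% did not overlap. Ccl4, Ccl5, Ccl17 and Ccl22 overlapped. For 3 of the 4, Ccl1, Ccl3 and Xcl1, the exact 95% Poisson intervals of the nearest libraries on either side overlapped. For Ccl20 they did not, reaching up to 11.8 TPM in replicate 2 and down to 12.2 TPM in replicate 4. The part of sex-linked transcripts in these differences was not tested.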

How the data were processed

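Raw fragment counts per gene were deposited for each library. Per the file headers, the authors made these counts with featureCounts 1.4.6-p4 and GENCODE M13 on mm10, from paired fragments with both ends mapped, counted in reverse-stranded mode over exons and summed per gene. Header names carry star2, but no source used here gives the aligner's version. The assay is labelled total RNA-seq, while the linked library protocol is for poly(A)+ RNA. The deposited files also give merged exon length, from which TPM was computed here.

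Gene identifiers were matched to symbols without their version, for 50376 of 50600 genes, and gene types came from GENCODE M21. The members and lists were chosen with earlier results of these data known. Pairs of members (each with the next lower by mean TPM, and those that share a receptor) were compared by an exact two-sided sign-flip test. For spread, counts normalized by TMM were fitted in edgeR 4.0.16 (R 4.3.3) with filterByExpr, a quasi-likelihood fit with an intercept alone and a robust prior, Benjamini-Hochberg over all genes. DESeq2 1.42.0 and limma 3.58.1 were alternatives. Sign flips were enumerated with numpy 2.4.6. Intervals used scipy 1.17.1, plots matplotlib 3.10.9, and tables pandas 2.3.3, under Python 3.11.15.

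The rule for named genes took all members and their receptors (some list genes are not reported here), other ligands of 1 TPM or more with Cxcl9 and Cxcl11, modifiers of 1 TPM or more, the 3 highest and 3 lowest of the inducing list, the 3 highest and the lowest of the interferon list, the 2 highest of each marker list (printed where they bear on a ligand), chemokine neighbours within 200 kb, and the 3 nearest profiles of members with a range of 1 log2 unit or more. Named outside it, after values were seen, were Csf2, Xist, Eif2s3y, Gnb1-ps3, Cxcl16, Cxcl2, Ccl28, Cxcl3, Ackr1, Ackr3, Ackr4, Foxp3 and the other markers named at or near 0, with Zbtb46. Xcl1 and Cxcl10 overlap opposite-strand genes, which had 0 and 2 counts.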

Additional observations from a re-analysis of the deposited data

Results flagged for a closer look

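Among the 9 ligands and 6 receptors with counts, Cxcl10 alone met the rule for a library that stands apart. Its gap between replicate 1 (0.0994 TPM) and the other 3 libraries (0 TPM) made up the whole range, a ratio of 1. With 0 counts in 3 libraries this ratio is 1 whatever the fourth value, so it carries no information on how far replicate 1 lies from the others. The value rests on 8 counts in the library with the most counts. Its 95% Poisson interval, 0.0429 to 0.196 TPM, overlaps those of the other 3, which reach 0.0743 to 0.109 TPM. Overlap of separate intervals is not a test of a difference.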

How the results depend on the processing

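Depth limits Xcl1 and Cxcl10, with 175 and 8 counts in total, and length assignment limits Ccl1, Ccl5 and Ccl20. Of 270 alternative values for 40 results, 246 kept direction and side of the threshold or moved by less than 1 SD. Much of this was fixed in advance and is not evidence of stability. Leaving out 1 of 4 libraries cannot move a mean by 1 SD, and no pair test could reach p under 0.05. With a threshold of 5 TPM, 4 members passed in every library in place of 8. Ccl4 held 49.8% of the members' counts in place of 56.2% of their TPM, and 55.4% to 57.3% of TPM when a replicate was left out. The count of genes varying beyond the trend was 98 with no filter on low counts and 43 by DESeq2 dispersion outliers, and leaving out a replicate gave 1 to 18 (18 without replicate 2, 2 without replicate 1). Without the length correction, differences turned for Ccl17 and Ccl20 (-1.18), Xcl1 and Ccl1 (-1.96) and Ccl17 and Ccl22 (-0.48). With the principal coding transcript length, an alternative chosen after seeing the data, they turned for Ccl17 and Ccl20 (-0.58), Ccl22 and Ccl5 (-0.53) and Xcl1 and Ccl1 (-2.16). Leaving out a replicate gave -0.019 to 0.35 for Ccl17 and Ccl20, -0.11 to 0.62 for Ccl22 and Ccl5, -0.31 to 0.36 for Xcl1 and Ccl1 and -0.11 to 0.32 for Ccl5 and Xcl1. In the 7 pairs with 4 of 4 libraries in 1 direction, only Ccl17 and Ccl22 turned, by CPM. Leaving out a replicate could not turn these pairs. The causes were not tested beyond length itself. No paired analysis was possible because there was 1 group.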

Other observations

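Ligand genes below 1 TPM on average were not all at 0. Cxcl16, which encodes a membrane-bound ligand of Cxcr6, was at 0.204, 0.330, 0.421 and 0.900 TPM in replicates 1 to 4, on 109 counts in total. Replicate 4 was highest. Cxcl2, a neutrophil attractant, had 33 counts in total, Ccl28 14 and Cxcl3 9. Among markers of the other lymphocytes that make Ccl3, Ccl4, Ccl5 and Xcl1, Cd8b1 was at 11.5 ± 2.16 TPM, Eomes at 3.34 ± 0.264 TPM and Klrd1 at 1.84 ± 0.197 TPM (SD, n = 4), while Ncr1 and Gzmk had 0 counts in all 4 libraries and Cd8a was at 0.243 ± 0.0456 TPM.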
